A study of Oryza sativa with 3 samples.

Results

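Metal homeostasis genes of rice were described in leaf RNA of cultivar Kitaake, an early-flowering japonica rice. The genes were chosen by published name: every probe set assigned to 1 gene whose symbol or synonym was an IRT, ZIP, YSL, NAS, NAAT, NRAMP, HMA, MTP, FER, FRDL, IRO or MT1 to MT4 form. The names matched 67 probe sets of 51 genes, out of 57194 probe sets analysed and 17905 genes with a probe set of their own. No FER (ferritin) or FRDL (citrate efflux) name was matched, so those steps were not analysed here.

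Leaves came from plants of 6 weeks grown side by side in a greenhouse, as 1 group of 3 replicates with 1 Affymetrix rice array each. The labels name no mutation, treatment or second time point and do not say how many plants made up a replicate. The spread between arrays may therefore be partly technical. There is no contrast to test, and every value below is a description of these arrays. Their number limits the precision of every value.

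Grasses take up ferric iron as a complex with mugineic acids, chelators that the root secretes, and rice can also take up ferrous iron directly. Nicotianamine is the precursor of these chelators and also carries iron, zinc and copper within the plant. Inside the leaf, metals are moved across membranes by the ZIP, YSL, NRAMP, HMA and MTP families and bound by metallothioneins, small cysteine-rich proteins.

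Signals are log2 values per probe set, given as mean ± SD over n = 3 arrays. Probes differ in how strongly they bind, so the level of 1 gene is not set against that of another. Background is the 95th percentile of the 64 reporter probe sets on the same array, at 5.64, 5.60 and 5.77 in replicates 1, 2 and 3. A signal under this bound does not show that a gene is silent. By it 46 of 67 members (68.7%) were above background on all 3 arrays, 19 were below it on all and 2 were mixed. That share lies near the 71.1% found over the 22436 probe sets with 1 annotated gene, and 47.1% of all probe sets passed. With 1 probe set per gene 36 of 51 genes (70.6%) passed. Where a gene has several probe sets, the pick prefers the highest mean, which favours passing. No share over all genes picked this way is given. The labelled tissue was checked against marker genes. All 5 leaf markers matched, among them LHCP (14.50 ± 0.01) and RCAA1 (14.19 ± 0.07), were above background, and 0 of 3 anther markers were. Of the 3 seed markers, 2 were above it (GLB at 9.96 ± 0.17 and GLUA-2 at 9.46 ± 0.13).

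Iron uptake was represented by a pair of ferrous iron transporter genes known from the root. IRT1 (LOC4333669) had signals of 7.51, 8.44 and 7.91 in replicates 1, 2 and 3 (7.96 ± 0.47). All 3 arrays were above background, with replicate 2 highest and replicate 1 lowest, 1.90-fold apart. The range on the log2 scale was 0.93, and it was 0.40 without replicate 2 and 0.53 without replicate 1. IRT2 (LOC4333667), which lies 1 protein-coding gene away from IRT1, had 3.90, 3.94 and 3.98 and was below background on every array. Among the other root markers the silicon channel gene Lsi1 was above background (9.10 ± 0.15) and the silicon efflux gene Lsi2 was not (4.30 ± 0.19). The part of root tissue in the IRT1 signal was not tested.

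The genes of chelator synthesis differed in how far the arrays spread. NAS3 (LOC4344361), a nicotianamine synthase gene, had 10.59, 10.11 and 9.11 in replicates 1, 2 and 3 (9.94 ± 0.76). Replicate 1 was highest and replicate 3 lowest, 2.79-fold apart. Its SD exceeded that of every other member probe set. The log2 range of 1.48 rests mostly on replicate 3: it was 0.48 without that array, and 1.004 without replicate 1. The same synthesis step is encoded by NAS1 and NAS2, which are direct neighbours in the genome. NAS1 (LOC4332608) was at 4.20 on all 3 arrays, below background, and NAS2 (LOC4332607) was at 5.92 on all 3, above the bound but not above the highest reporter, which stood at 6.51, 6.51 and 6.59. NAAT1 (LOC9267778), the aminotransferase gene of the next step towards mugineic acids, had 12.36, 12.25 and 12.45 (12.35 ± 0.10). All of its arrays were far above background and within 1.15-fold of each other.

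The transcription factor gene IRO3 (LOC4332972) encodes a bHLH protein known in rice as a negative regulator of the iron deficiency response. It had 8.02, 7.81 and 7.42 in replicates 1, 2 and 3 (7.75 ± 0.30). Replicate 1 was highest and replicate 3 lowest, as for NAS3, and the arrays spanned 1.51-fold. The RefSeq table also lists the synonym OsIRO2 for this gene, although that name is in use for another rice gene, so the values are given for the locus.

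**Figure D1:**
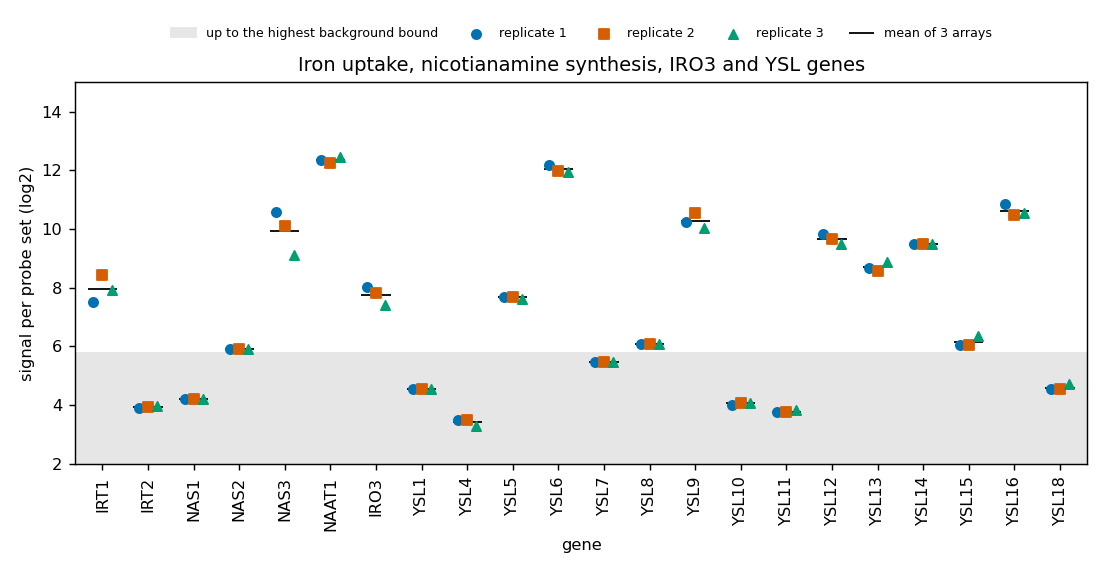
Signal (log2) of the probe set representing each gene of iron uptake, nicotianamine and mugineic acid synthesis, IRO3 and the YSL family; points are the 3 arrays, bars their mean, and grey reaches up to the highest background bound (5.77). NAS3 and IRT1 have the widest spread, from 9.11 to 10.59 and from 7.51 to 8.44, while IRT2 and NAS1 lie in the grey band.

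YSL proteins carry metals bound to nicotianamine or mugineic acids. Of 15 YSL genes, 9 (60%) were above background on all 3 arrays and 6 were below it on all. The share was 71.1% over probe sets with 1 annotated gene, and 15 genes are too few to set apart from it. None of the 16 YSL probe sets reached a 1.5-fold range, where 5.52% of all probe sets and 6.09% of those with 1 annotated gene did. Of the 16, 7 were below background on all arrays, and 16 are too few to set apart from these shares. YSL6 (LOC4335676), linked in rice to manganese detoxification in leaves, had 12.18, 11.97 and 11.94 (12.03 ± 0.13). YSL16 (LOC4336546), which moves copper and iron complexes in the phloem, had 10.84, 10.47 and 10.54 (10.62 ± 0.20). In both, replicate 1 was highest.

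YSL9 (LOC4336545), a transporter of iron chelates, had 10.23, 10.53 and 10.04 (10.27 ± 0.25). Its highest array was replicate 2, as for IRT1, and its lowest replicate 3. YSL13 (LOC4336441), linked to iron distribution between older and younger leaves, had 8.66, 8.58 and 8.88 (8.71 ± 0.15), with replicate 3 highest. YSL12 had 9.66 ± 0.16 in the probe set that represents it and 3.34 ± 0.07, below background, in its other probe set, so its probe sets did not give a common level. YSL14 was at 9.49 on all arrays and YSL5 at 7.66 ± 0.04.

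YSL15 (LOC9268232), the iron-mugineic acid transporter of rice roots, had 6.05, 6.05 and 6.35 (6.15 ± 0.17). All 3 values passed the bound, but none passed the highest reporter of its array. YSL8, at 6.09 on all arrays, likewise lay between the bound and the highest reporter. YSL18 (LOC4327424), known from reproductive organs and phloem, was below background at 4.60 ± 0.10. The other genes below background were YSL1, YSL4, YSL7, YSL10 and YSL11, with means between 3.41 and 5.47.

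ZIP transporters bring zinc and other divalent metals into the cytosol. Of 8 ZIP genes ZIP1 (4.78 on all arrays) and ZIP3 (4.26 on all arrays), the gene of a node transporter that unloads zinc from the xylem, were below background. The other ZIP genes were above it on every array, where 71.1% of probe sets with 1 annotated gene passed. A family of 8 genes is too small to set apart from that share. ZIP4 (LOC4344937), a zinc transporter gene, had 9.46, 9.29 and 8.85 in replicates 1, 2 and 3 (9.20 ± 0.32). Replicate 3 was the lowest and the arrays spanned 1.53-fold. ZIP6 (LOC4337908) had 9.43, 9.43 and 8.96 (9.27 ± 0.27), and replicate 3 was again lowest. ZIP8 (LOC4342782), a zinc transporter gene also listed as ZIP1, had 10.29, 10.14 and 10.02 (10.15 ± 0.14).

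ZIP7 (LOC4338051), a zinc transporter gene also listed as ZIP3, was at 7.98 ± 0.02 and ZIP2 (LOC4333098) had 7.03, 7.03 and 6.93. ZIP5 (LOC4339082), a zinc uptake gene of the root that is also listed as ZIP2, had 5.89, 6.23 and 6.15 (6.09 ± 0.18), below the highest reporter on every array.

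NRAMP proteins move divalent metals into the cytosol. NRAMP3 (LOC9267339), a manganese transporter gene known from rice nodes, had 8.33, 8.07 and 7.61 in replicates 1, 2 and 3 (8.004 ± 0.365). Replicate 1 was highest and replicate 3 lowest, 1.65-fold apart. NRAMP5 (LOC4342859), the main manganese and cadmium uptake gene of rice roots, was below background at 4.61, 4.58 and 4.58. NRAMP1 (LOC4342862), an iron and cadmium transporter gene with 2 protein-coding genes between it and NRAMP5, was above background at 6.70, 6.70 and 6.71. NRAMP2 (LOC4332012) had 10.35, 10.22 and 10.21 (10.26 ± 0.08), and NRAMP6 (LOC4352640) had 7.09 ± 0.11.

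The gene listed as NRAMP4 (LOC4324486) had 5 probe sets, and they disagreed. The probe set that represents it had 8.23, 8.83 and 8.66 (8.57 ± 0.31), lowest in replicate 1. A further probe set with the suffix _x_at, which may also catch related transcripts, had 7.17, 7.84 and 7.49 (7.50 ± 0.34), also lowest in replicate 1 and highest in replicate 2. The others had means of 5.94, 4.33 and 4.25, of which only the first was above background on all arrays. The numbers NRAMP4 and NRAMP6 are those of the RefSeq table, and no role is given for them since the numbering of this family differs between sources.

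HMA proteins are pumps that export metals from the cytosol. HMA4 (LOC4328616), which loads copper into the vacuole, had 7.35, 7.35 and 7.30 (7.33 ± 0.03). HMA2 (LOC4341965), a zinc and cadmium pump gene, was below background at 3.40, 3.40 and 3.48. HMA5 (LOC4336625), a copper pump gene of xylem loading, had 6.01, 5.40 and 5.57, above background in replicate 1 alone. No fold is given for it.

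MTP proteins move metals out of the cytosol into compartments. MTP1 (LOC4337694), known for storing zinc in the vacuole, had 10.26, 10.26 and 10.19 (10.23 ± 0.04). MTP3 (LOC4330894) had 10.53, 10.63 and 10.39 (10.52 ± 0.12), and MTP5 (LOC4327371) had 9.60, 9.58 and 9.33 (9.50 ± 0.15). These genes were all lowest in replicate 3 and stayed within 1.20-fold. MTP7 was above background on 2 arrays (5.72 ± 0.09), and both probe sets of MTP4 were below it (5.39 and 4.85).

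**Figure D2:**
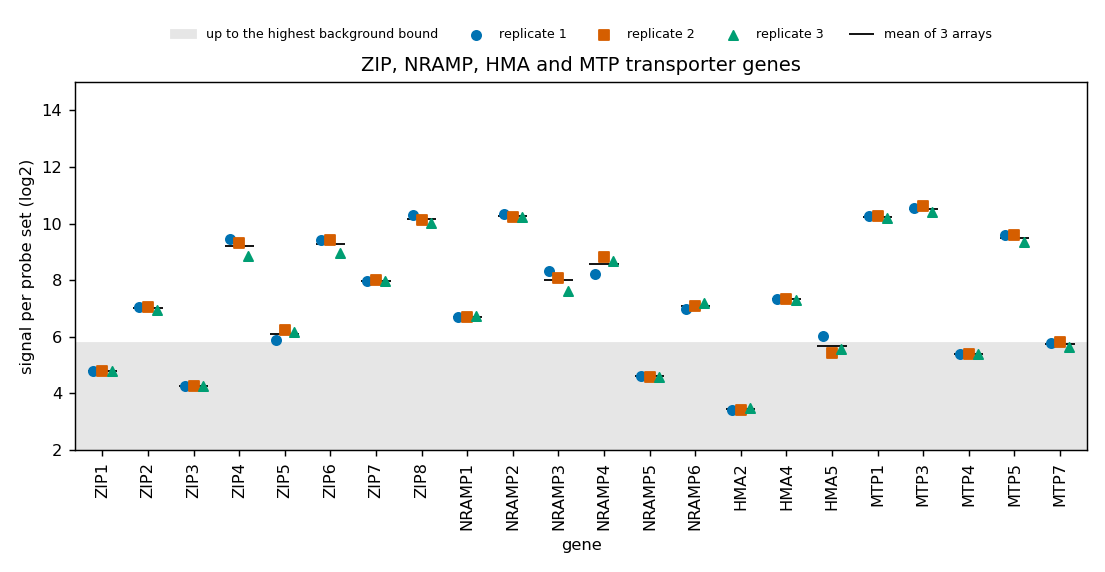
Signal (log2) of the probe set representing each ZIP, NRAMP, HMA and MTP gene; points are the 3 arrays, bars their mean, and grey reaches up to the highest background bound (5.77). ZIP1, ZIP3, NRAMP5, HMA2 and MTP4 lie in the grey band, HMA5 and MTP7 straddle its edge, and NRAMP3 and ZIP4 spread over 1.65-fold and 1.53-fold.

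Set out by the metal each gene is best known for in rice, 26 genes could be assigned. Of the 12 iron genes 9 were above background on all arrays, and IRT2, NAS1 and YSL18 were below it. Of the 8 zinc genes 5 were above background, and ZIP1, ZIP3 and HMA2 were below it. These shares were 75% for iron and 62.5% for zinc, where 71.1% of probe sets with 1 annotated gene passed. Groups of 12 and 8 genes are too few to set apart from that share. NAS2, YSL15 and ZIP5, counted as above, did not pass the highest reporter on any array. For manganese YSL6 and NRAMP3 were above and NRAMP5 below. For copper HMA4 and YSL16 were above and HMA5 was mixed. Many of these proteins carry more than 1 metal, so the groups describe names and not fluxes.

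All 7 metallothionein genes were above background on all arrays in the probe set that represents them, a pick that favours passing. By probe set it was 15 of 17, where 71.1% of probe sets with 1 annotated gene passed. A group of 7 genes is too small to set apart from that share. MT1A (LOC4351213) had 12.94, 13.04 and 13.04 (13.01 ± 0.06), lowest in replicate 1. MT2B (LOC4326409) had 13.67, 13.55 and 13.54 (13.58 ± 0.07), highest in replicate 1. MT2C (LOC4337596) had 12.39, 12.33 and 12.18 (12.30 ± 0.11). The names MT2B and MT2C follow the RefSeq table, which also lists OsMT2c for the locus called MT2B here and OsMT2b for the locus called MT2C, so the loci identify them.

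The 4 probe sets of MT2A (LOC4325218) did not give a common level. Their means were 7.48, 9.35, 4.85 and 14.16. The probe set at 14.16 ends in _s_at and can be shared between transcripts. The probe set at 4.85 had 4.54, 4.42 and 5.60, below background on every array, so its range is not read as a difference. In the other 3 probe sets replicate 1 was highest and replicate 2 lowest, by 1.19-fold to 1.36-fold. MT2B held to means of 13.58, 13.47 and 12.20 in 3 probe sets, and was below background (5.04) in the remaining probe set. MT2C lay between 10.89 and 12.30 in all 5.

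MT4A (LOC4352580) had 11.35, 11.67 and 11.55 (11.53 ± 0.16), with replicate 2 highest. MT4C (LOC4352582) had 6.52, 6.12 and 6.01 (6.22 ± 0.27), with replicate 1 highest. MT1B (LOC4332487) had 6.19, 5.85 and 6.19 (6.08 ± 0.20). MT1B stayed under the highest reporter on all 3 arrays, and MT4C on all but replicate 1. MT4A and MT4C are also listed as OsMT1b and OsMT1c, so their type is not settled by name.

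Most metallothionein probe sets had a signal in replicate 1 above their mean in replicates 2 and 3. This was so for 14 of 17, with a median difference of 0.20 (log2). The share was 40.9% of all probe sets and 50.8% of those with 1 annotated gene. Above background, where 15 of the 17 lay, it was 54.2% of all probe sets. MT2A, MT2B and MT2C gave 12 of the 14, from 13 probe sets that share targets and are not separate measurements. Of the other 4 genes 2 were higher in replicate 1 (MT1B and MT4C) and 2 lower (MT1A and MT4A). By gene the count was 5 of 7. Of the poly-A spike controls, added before labelling, 27 of 36 were lower in replicate 1, by a median of -0.10. In replicate 2, which is part of the mean that replicate 1 is set against, 36 of 36 were higher, by a median of 0.29. The part of labelling in the metallothionein difference was not tested.

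**Figure D3:**
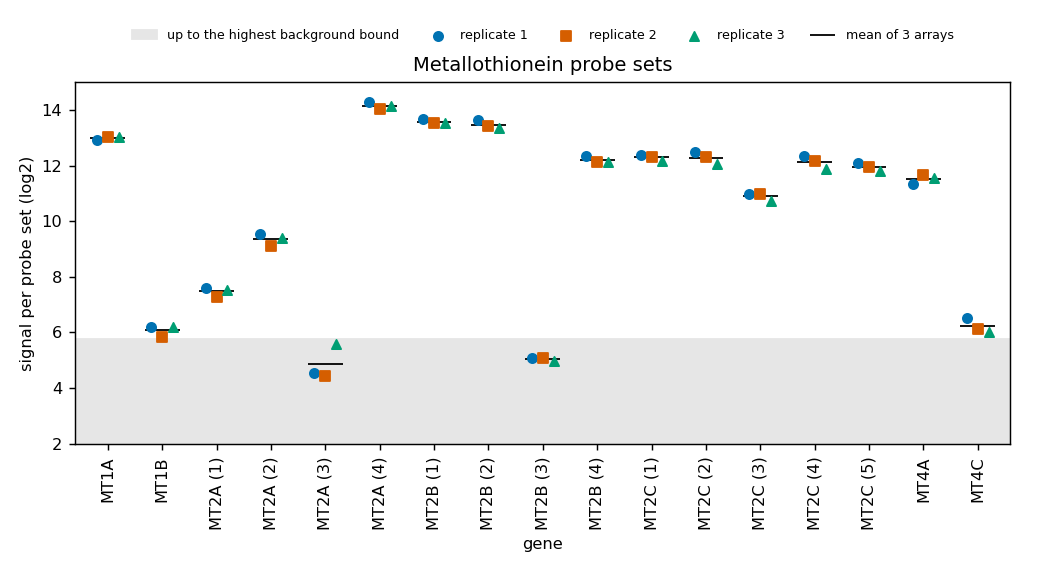
Signal (log2) of all 17 metallothionein probe sets, numbered within a gene where it has several (the first represents the gene); points are the 3 arrays, bars their mean, and grey reaches up to the highest background bound (5.77). The 4 probe sets of MT2A run from 4.85 to 14.16, and replicate 1 lies at or near the top in most probe sets of MT2A, MT2B and MT2C.

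The median SD was 0.12 over the 67 members, against 0.07 over all probe sets and 0.08 over those with 1 annotated gene. Among the 46 members above background it was 0.15, against 0.08 over all probe sets above background. Without replicate 3 the members' median SD was 0.05. The like value over all probe sets is not given, so this drop is not read as a trait of the members. Replicate 3 also stood apart over all probe sets. There the log2 difference of replicate 1 minus replicate 2 had an SD of 0.153. With replicate 3 subtracted, the SD was 0.249 for replicate 1 and 0.245 for replicate 2. For the members the same SDs were 0.240, 0.329 and 0.274. Members equal on all 3 arrays numbered 10 (14.9%), near the 15.3% of probe sets with 1 annotated gene, and 24.2% of all probe sets were equal. Such ties are usual for median-polished values, and an SD of 0 is not an exact measurement.

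A range of at least 2-fold was reached by 2 of 67 members, where 0.972% of all probe sets and 1.07% of those with 1 annotated gene did. They were NAS3 and the MT2A probe set below background. Without replicate 3 no member reached it. A range of at least 1.5-fold was reached by 9 members (13.4%), where 5.52% of all probe sets and 6.09% of those with 1 annotated gene did. Besides NAS3 and IRT1 they were ZIP4, IRO3, NRAMP3 and 2 probe sets of NRAMP4, all above background, and HMA5 and the MT2A probe set, which were not. The count rests on few arrays: it was 2 without replicate 1, 5 without replicate 2 and 4 without replicate 3, which was added after seeing the data. The members nearest to the 1.5-fold line were IRO3 and NRAMP4 above it, both at 1.51-fold, and MT4C and YSL9 below it, at 1.43-fold and 1.40-fold.

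**Figure D4:**
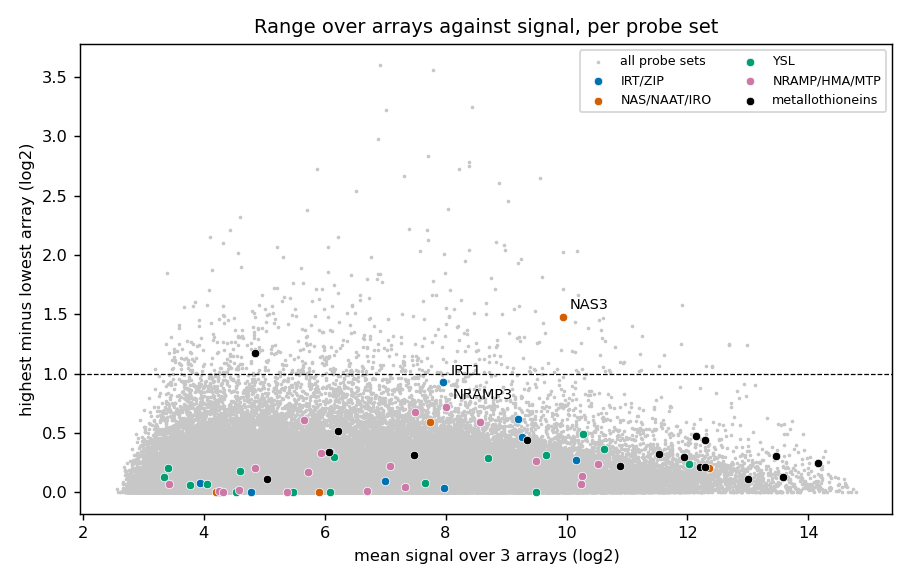
Highest minus lowest array (log2) against the mean signal of the 3 arrays (log2), with all 57194 probe sets in grey and the 67 members coloured by family; the dashed line marks 2-fold. NAS3 (1.48) and the dim MT2A probe set lie above the line, and IRT1 (0.93) just under it.

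The 6 genes above background that spanned at least 1.5-fold followed 2 orders of the arrays. NAS3, ZIP4, IRO3 and NRAMP3 were highest in replicate 1 and lowest in replicate 3. IRT1 and NRAMP4 were highest in replicate 2 and lowest in replicate 1. The share of these orders over all probe sets is not given, so they are not read as a trait of the members. The differences in replicate 3 against the mean of the others were -1.24 for NAS3, -0.59 for NRAMP3, -0.53 for ZIP4 and -0.49 for IRO3. Without replicate 3 the arrays of these genes lay within 1.39-fold, 1.20-fold, 1.13-fold and 1.16-fold. These genes were picked with replicate 3 as their lowest array, so leaving it out had to narrow each range. Over all members replicate 3 was lower in 37 of 67 (55.2%), near the 58.8% of probe sets with 1 annotated gene, and 44.2% of all probe sets were lower there. The poly-A spike controls were lower in replicate 3 in 35 of 36, by a median of -0.19, and higher in replicate 2 in 36 of 36, by a median of 0.29. IRT1 was higher in replicate 2 by 0.73. The part of labelling in these differences was not tested.

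**Figure D5:**
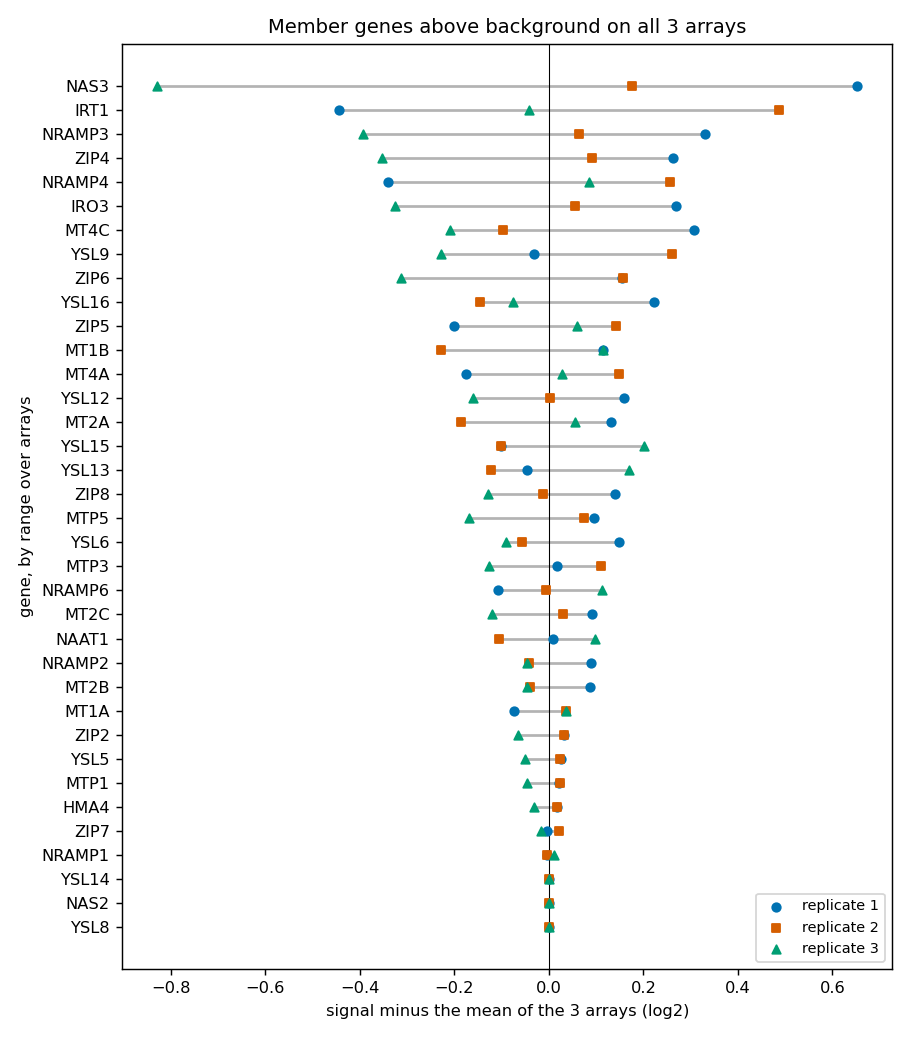
Signal of each array minus the mean of the 3 arrays (log2) for the 36 member genes above background on all arrays, ordered by range; grey lines join the lowest and highest array. NAS3 runs from replicate 3 at the low end to replicate 1 at the high end, 2.79-fold apart, and the last 3 genes (YSL14, NAS2 and YSL8) were equal on all arrays.

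Several members are neighbours in the rice genome, as ordered in the RefSeq assembly ASM3414082v1, which served only for gene order. With at most 5 protein-coding genes in between, 10 pairs were found, which share genes where 3 members lie together. In 6 of the 10 pairs only 1 gene was above background on all arrays. Over all 67746 pairs of genes at such distances with a probe set of their own, 36.1% were split in this way, and 10 pairs that share genes are too few to set apart from that share. The split pairs were IRT1 with IRT2, NAS2 with NAS1, NRAMP1 with NRAMP5, YSL8 with YSL7, and YSL12 and YSL13, each with YSL11. In NAS2 and YSL8 the signal stayed under the highest reporter. The pairs with both genes above background were YSL5 with YSL6, YSL9 with YSL16, YSL12 with YSL13, and MT4A with MT4C.

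Other genes of metal handling were matched from a list of 43 names. Of these, 8 genes were found under a name that fits the pathway. Above background on all arrays were 6 of the 8, where 71.1% of probe sets with 1 annotated gene were. The vacuolar iron transporter genes VIT1 and VIT2 had 10.74 ± 0.09 and 11.64 ± 0.15. IDEF1, a regulator of the iron deficiency response, was at 9.06 ± 0.07. The copper transporter gene COPT1 had 12.24, 11.82 and 12.02 (12.03 ± 0.21), and COPT7 had 9.17 ± 0.17. SAMS2, a synthetase gene for S-adenosylmethionine, from which nicotianamine is built, had 10.23, 10.40 and 9.91 (10.18 ± 0.25). The 2 genes below background were both listed as COPT2, with means of 4.11 and 4.74. None of the 8 spanned 1.5-fold, where 6.09% of probe sets with 1 annotated gene did, and 8 genes are too few to set apart from that share. A further 3 matches (TOM1, TOM2 and FC1) carry names shared with unrelated proteins and were set aside.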

How the data were processed

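Total RNA was extracted with TRIzol, DNase-treated and labelled with biotin, per the labels' protocols. The authors deposited log2 signals, 1 per probe set and array. RMA is the tool named in the submitters' processing notes, with version and settings not given in the sources used here. RMA as usually run brings the distributions of the arrays together, so a shift of most genes on 1 array could be hidden in part or in whole. Small shifts remained: of all probe sets above background, 62.0% were lower in replicate 3 and 24.3% higher, with a median difference of -0.05 (log2). No scanner file was used.

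Controls and reporters (187 of 57381 probe sets) were left out. The platform annotation named 1 gene for 22436 probe sets, several for 95 and none for 34663. Names came from RefSeq by gene identifier. Each gene with several probe sets (6 member genes) was represented by one whose suffix is neither _x_at nor _s_at, with the highest mean. Values within 1e-09 were taken as equal. The background bound was set for this description. Members and lists were chosen with earlier results of these data known. Any member gene could be named. The rule gives values per array for IRT1, NAS3 and, in each family, the 2 members that varied most and the 2 of highest mean; those of other genes were added after their values were seen. No test was run, since there is 1 group. Alternatives were other choices of normalization, background, probe set and fold, and leaving out each array. Python 3.11.15, numpy 2.4.6, pandas 2.3.3 and matplotlib 3.10.9 were used.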

Additional observations from a re-analysis of the deposited data

How the results depend on the processing

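Over 11 results and 75 alternatives, 65 values moved by less than the spread between arrays or, for counts, by no more than 1.5 times. The 65 include values that had no room to move. Among members above background the count of 46 was fixed by that choice. IRT1 and NAS3 have 1 probe set each, so the mean of the probe sets could not differ. Centring each array on its median left every value it was run for unchanged. The 65 also include small values that moved by a large part of their size. These were the median SD (0.12, and 0.05 without replicate 3) and the median difference in replicate 1 (0.02, and 0.12 among members above background). The count of 65 therefore does not show that such values are stable. Members above background numbered 46, and 39 with the highest reporter as the bound; the 7 in between were ZIP5, NAS2, YSL8, YSL15, MT1B, MT4C and 1 probe set of NRAMP4. Members spanning at least 2-fold numbered 2 on all arrays and ran from 0 (without replicate 3) to 2 with an array left out. The count was 1 with 1 probe set per gene, 1 with the mean of the probe sets of each gene and 1 among members above background, since the MT2A probe set then drops out; a 1.5-fold line gave 9, and 2 to 5 with an array left out, which was added after seeing the data. With an array left out, the log2 range of NAS3 ran from 0.48 (without replicate 3) to 1.48 and that of IRT1 from 0.40 (without replicate 2) to 0.93. The median SD ran from 0.05 (without replicate 3) to 0.10 with an array left out. Quantile normalization again gave ranges of 1.39 for NAS3 and 0.91 for IRT1. The median difference of members in replicate 1 was 0.02, and 0.12 among members above background. No paired analysis was possible because there is 1 group. With 3 arrays and no detection calls, signals near the bound cannot be told from background.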
